A study of Mus musculus with 4 samples.

Results

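The genes of central carbon metabolism were followed in RAW 264.7 cells, a mouse macrophage line, with and without the long noncoding RNA Dnm3os. The 48 genes were listed by their role: 19 of glucose uptake, glycolysis and lactate, 3 of the pyruvate dehydrogenase step, 6 of the pentose phosphate pathway, 19 of the TCA cycle with the isocitrate dehydrogenases, and Acod1 for itaconate. All 48 were found among the 24422 named genes and all passed the filter on low counts. They held between 2.74 and 2.79% of the counts of each library.

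Poly(A) RNA was sequenced in 4 libraries, 2 from cells stably carrying the empty plasmid pcDNA 3.1(+) and 2 from cells stably carrying Dnm3os. The labels name no stimulus, and cells of both groups grew in DMEM with glucose at 5.5 mmol/L and came from passages 3 to 6. Whether a group's libraries are separate cultures, and whether its cells are 1 clone or a pool, is not given in the labels, so p-values measure only the spread between these libraries, which may be technical. The question was which genes differ when the cells carry Dnm3os.

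With 1 transcript kept per gene, the libraries held 29416272 to 39769640 counts. The Dnm3os gene had 0 counts in either empty vector library against 208 and 260 in the Dnm3os libraries, as the labels have it. Libraries of a group differed by more than counting noise (chi-square per gene of 5.13 for empty vector and 4.20 for Dnm3os, where noise alone gives about 1). Of the 8 macrophage markers listed, 3 were higher and 2 lower in Dnm3os libraries, and their summed level was 9579 to 9741 CPM (counts scaled to a library size of 1000000) in empty vector and 10452 to 10921 CPM in Dnm3os libraries. Lyz2 alone held 6938 to 7088 and 7576 to 8037 CPM of these sums, and the other 7 markers summed to 2640 to 2653 and 2876 to 2884 CPM. The part of this difference in the results was not tested. Summed markers of T cells, B cells, neutrophils, fibroblasts, endothelial and epithelial cells lay between 0 and 7.19 CPM per list in every library. Not every listed marker was absent. Those at 0 counts in all 4 libraries were 3 of 7 for T cells (Cd3e among them) and 3 of 5 for B cells. For neutrophils they were 5 of 7 (Ly6g among them) and for fibroblasts 4 of 7 (Col1a2 among them). For endothelial cells they were 1 of 6 (Cldn5) and for epithelial cells 3 of 5 (Epcam among them). Lck was at 5.16 to 6.93 CPM, S100a8 at 4.24 to 5.95 CPM and Vwf at 0.747 to 1.81 CPM. Among endothelial markers, 1 was called higher and 1 lower. In bulk RNA, fewer cells of a kind and less RNA per cell cannot be told apart.

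Glycolysis splits glucose into pyruvate, which becomes lactate in the cytosol or enters mitochondria and is turned into acetyl-CoA by pyruvate dehydrogenase. The pentose phosphate pathway branches off at glucose 6-phosphate and yields NADPH and ribose, and the TCA cycle oxidises acetyl-CoA. Macrophages activated by microbial signals are known for high glycolysis, and for itaconate, which the enzyme encoded by Acod1 (formerly Irg1) makes from the TCA intermediate cis-aconitate. Itaconate inhibits succinate dehydrogenase.

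In cells carrying Dnm3os, Acod1 rose 2.55-fold and Hk3, a hexokinase of myeloid cells, rose 1.99-fold. They were the 2 members past 1.5-fold, where 5.3% of all genes tested were. Gapdh, Aldoa, Pkm and Ldha of glycolysis differed by under 5% and were not called, while the other called differences, 7 to 17% in size, were spread over the 4 arms other than itaconate. Genes were called at an adjusted p under 0.05 (edgeR, quasi-likelihood, two-sided, with Benjamini-Hochberg adjustment over 13172 genes). By that rule 10 of the 48 rose and 5 fell, which is 31.2%. Over all genes tested the share called was 12.3% (6.51% higher and 5.75% lower), and among genes at 50 CPM or more it was 16.9%. The median log2 fold change of the 48 was 0.03, beside 0.00 over all genes tested.

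**Figure D1:**
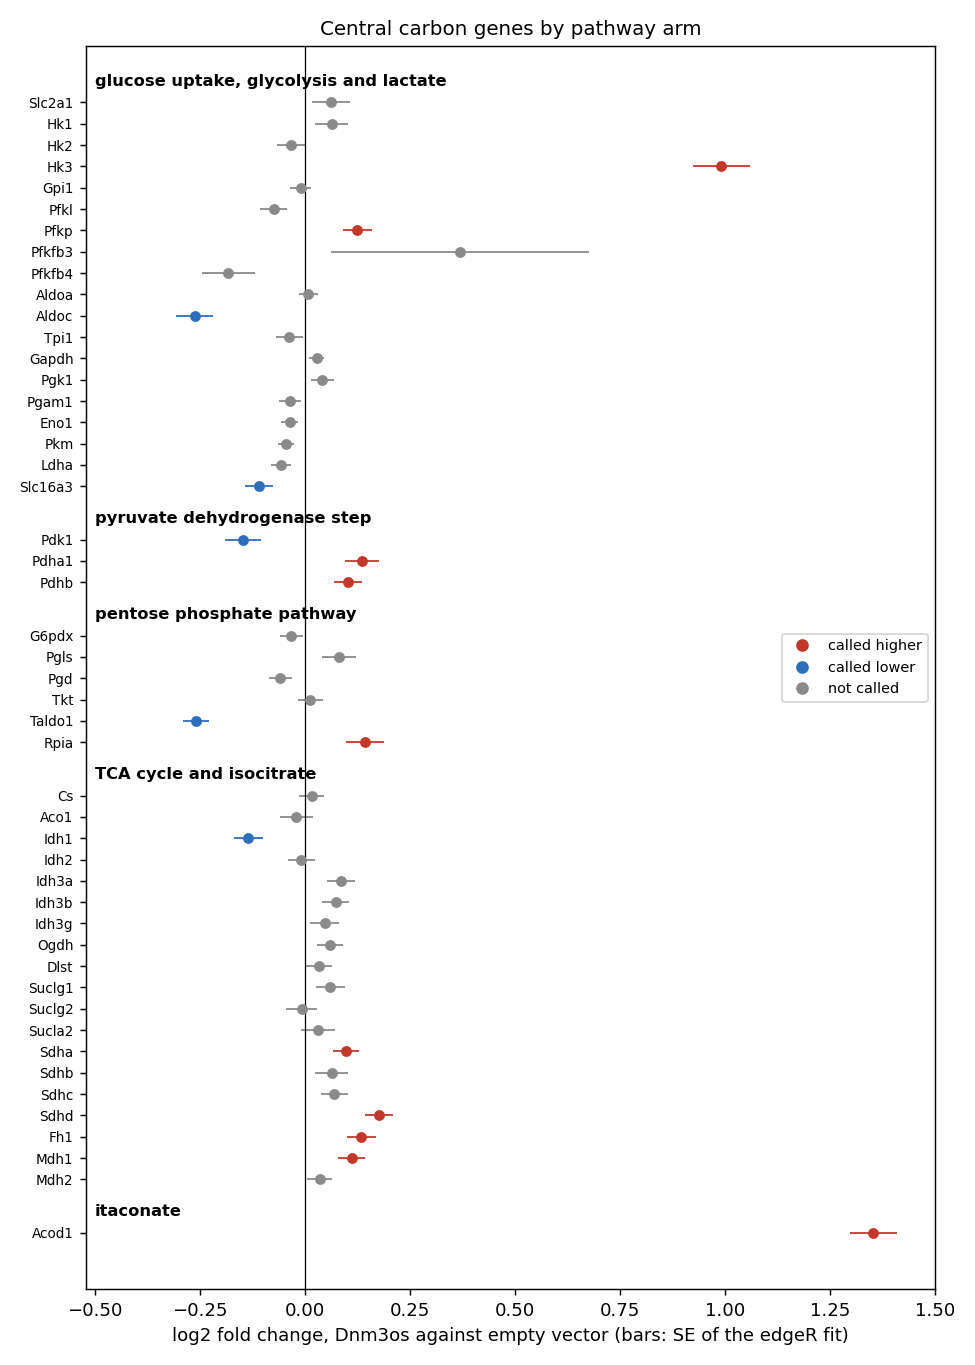
Log2 fold change (x axis, Dnm3os against empty vector, bars are the SE of the edgeR fit) of the 48 genes, by pathway arm on the y axis; red and blue mark called genes. Acod1 and Hk3 stand apart at 1.35 and 0.99, and the other 46 lie between -0.26 and 0.37.

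The promoters of 3 of the 4 members called under all 14 alternative settings, Acod1 and Hk3 among those that rose and Taldo1 among those that fell, are shown. They are the 250 bases before the RefSeq start (GRCm38.p6, gene strand, 5′ to 3′). Capitals mark every match to the motifs searched: the hypoxia response core (ACGTG or GCGTG), the E-box (CACGTG), the core of the NRF2 element (TGACNNNGC), the PU.1 core (GAGGAAG) and the kappa B site on both strands, and a TATA box (TATAAA) on the gene's strand. The E-box contains ACGTG. The PU.1 core, the TATA box and the kappa B site were added after the data were seen.
Acod1, chr14:103046762-103047011, plus strand: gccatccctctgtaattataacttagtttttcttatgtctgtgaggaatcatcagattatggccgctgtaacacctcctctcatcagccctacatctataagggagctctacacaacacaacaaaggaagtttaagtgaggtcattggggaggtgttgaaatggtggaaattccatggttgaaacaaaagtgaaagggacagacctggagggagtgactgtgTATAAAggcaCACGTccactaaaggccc
Hk3, chr13:55021386-55021635, minus strand: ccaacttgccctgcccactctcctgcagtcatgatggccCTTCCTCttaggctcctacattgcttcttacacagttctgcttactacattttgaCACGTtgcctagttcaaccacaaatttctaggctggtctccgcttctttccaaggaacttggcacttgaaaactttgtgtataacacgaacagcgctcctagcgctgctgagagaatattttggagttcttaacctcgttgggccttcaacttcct
Taldo1, chr7:141391910-141392159, plus strand: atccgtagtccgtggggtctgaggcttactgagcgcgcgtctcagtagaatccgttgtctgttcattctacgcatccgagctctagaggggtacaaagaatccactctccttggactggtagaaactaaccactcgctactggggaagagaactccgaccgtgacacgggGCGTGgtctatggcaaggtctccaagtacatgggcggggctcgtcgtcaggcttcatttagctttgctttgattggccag
The window before Acod1 had a TATA box 28 to 23 bases before the start and a hypoxia core 18 to 14 bases before it. Hk3 had a PU.1 core 211 to 205 bases and a hypoxia core 156 to 152 bases before its start, and Taldo1 a hypoxia core 80 to 76 bases before its own.

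Promoters were in the table for 46 of the 48 members, with 63 starts in all. A hypoxia core was in 77.8% of these 63, against 38.6% of all 32851 promoters. The hypoxia core holds a CpG, and member promoters had a median of 16 CpG against 6 over all promoters. Among promoters with at least 10 CpG the shares were 81.2% of 48 member promoters and 64.2% of all. A TATA box was in 1.59% of member promoters, that of Acod1, against 7.59% of all. The shares of member and of all promoters were 7.94% and 6.02% for the E-box, 9.52% and 10.2% for the NRF2 core, 9.52% and 10.6% for the PU.1 core, and 12.7% and 7.25% for the kappa B site. A match describes the letters in this window alone.

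Acod1, whose product makes itaconate, had 951 and 952 counts in the empty vector libraries and 1913 and 2211 in the Dnm3os libraries. That is 23.8 and 26.9 CPM against 65.0 and 64.5 CPM, so the groups did not overlap. The mean rose from 25.4 ± 2.19 to 64.7 ± 0.364 CPM (SD, n = 2 per group; log2 fold change 1.35 ± 0.06 SE, adjusted p = 7.57e-14 by edgeR). Per kilobase of transcript, its mean level was 9.68 CPM per kb in empty vector and 24.7 CPM per kb in Dnm3os libraries. Clybl, whose enzyme acts in the breakdown of itaconate, rose from 8.13 ± 0.263 to 10.4 ± 0.879 CPM (log2 fold change 0.36 ± 0.10, adjusted p = 0.016 by edgeR). Clybl lost its call when empty vector library 1 (0.32) or Dnm3os library 1 (0.27) was left out. Suclg1, Suclg2 and Sucla2, subunits of the succinyl-CoA synthetases that can also activate itaconate, were not called, with log2 fold changes of 0.06, -0.01 and 0.03.

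**Figure D2:**
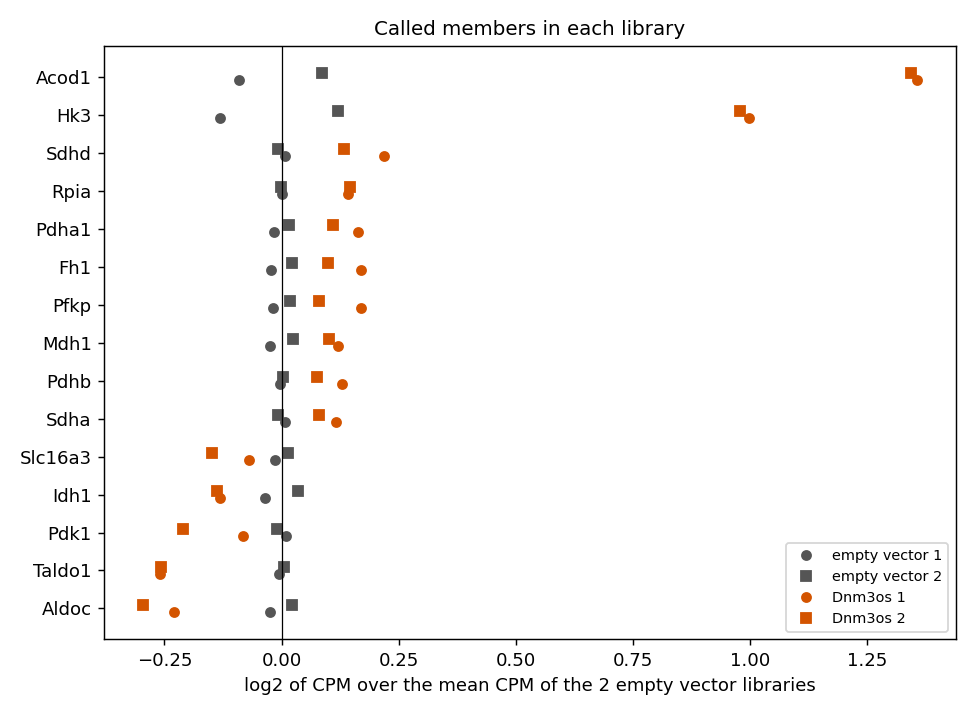
Log2 of CPM over the mean CPM of the 2 empty vector libraries (x axis) for the 15 called members (y axis); grey points are empty vector and orange points Dnm3os libraries, circles number 1 and squares number 2. Both orange points of each gene lie on 1 side of both grey points.

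Glucose enters through the carrier Slc2a1 (GLUT1) and is trapped by hexokinases. Slc2a1 was at 228 and 245 CPM in empty vector and 258 and 236 CPM in Dnm3os libraries, so the groups overlapped (log2 fold change 0.06 ± 0.05). It was called higher without empty vector library 2 (0.11, adjusted p = 0.0398 by edgeR). Of the carriers outside the list, Slc2a6 (GLUT6) rose from 16.4 ± 0.120 to 24.3 ± 0.439 CPM (log2 fold change 0.56 ± 0.07, adjusted p = 2.12e-06 by edgeR), while Slc2a3 (GLUT3) was at 43.3 and 44.0 against 46.5 and 44.1 CPM.

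Hk3 was at 32.9 and 39.2 CPM in empty vector and 72.0 and 71.0 CPM in Dnm3os libraries, with no overlap. The mean rose from 36.0 ± 4.45 to 71.5 ± 0.669 CPM (log2 fold change 0.99 ± 0.07, adjusted p = 1.09e-06 by edgeR), and it was called under all 14 alternatives, with values of 0.86 to 1.12. The other hexokinases overlapped between the groups: Hk1 had a log2 fold change of 0.06 ± 0.04 and Hk2 of -0.03 ± 0.03. Per kilobase of transcript, Hk3 made up 17.2 and 19.1% of the summed hexokinase level in empty vector libraries and 29.9 and 30.7% in Dnm3os libraries. The summed level was 59.3 and 63.9 against 74.7 and 71.9 CPM per kb. In empty vector libraries the order per kilobase was Hk1 at 25.7 and 27.4, Hk2 at 23.4 and 24.4, and Hk3 at 10.2 and 12.2 CPM per kb. The order was the same in Dnm3os libraries, where Hk2 at 23.6 and 23.0 and Hk3 at 22.4 and 22.1 CPM per kb lay close together.

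**Figure D3:**
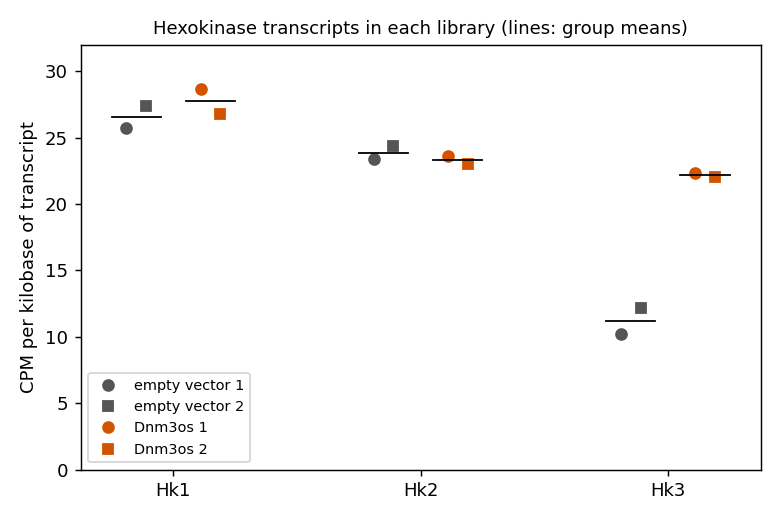
CPM per kilobase of transcript (y axis, from 0) of the 3 hexokinase genes in each library; lines are group means of 2 libraries. Hk3 is near 11.2 in empty vector and 22.2 in Dnm3os libraries, while Hk1 and Hk2 stay between 23.0 and 28.7.

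Phosphofructokinase commits sugar to glycolysis. The platelet-type subunit Pfkp rose from 191.9 and 197.0 CPM to 218.7 and 205.6 CPM (log2 fold change 0.13 ± 0.03, adjusted p = 0.017 by edgeR). This call was lost on leaving out empty vector library 1 (0.10) or Dnm3os library 1 (0.08). The liver-type subunit Pfkl was lower in both Dnm3os libraries but not called (-0.07 ± 0.03, adjusted p = 0.151 by edgeR). The muscle-type Pfkm, outside the list, fell by 0.32 ± 0.08 on the log2 scale (adjusted p = 0.00993 by edgeR), a call lost without Dnm3os library 2 (-0.19). Per kilobase, the share of Pfkp among the 3 subunits was 40.9 and 41.3% in empty vector and 45.1 and 44.7% in Dnm3os libraries.

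Pfkfb3 and Pfkfb4 make fructose 2,6-bisphosphate, the activator of phosphofructokinase. Pfkfb3 was at 9.93 and 12.1 CPM in empty vector and 17.3 and 11.3 CPM in Dnm3os libraries, with the largest SE of the list (0.37 ± 0.31). Only Dnm3os library 1 was above both empty vector libraries, and without Dnm3os library 2 the gene was called higher (0.65, adjusted p = 0.00578 by edgeR). Pfkfb4 was lower in both Dnm3os libraries, at 21.1 and 21.2 against 23.8 and 24.1 CPM, and was not called (-0.18 ± 0.06, adjusted p = 0.0694 by edgeR).

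The aldolase of most tissues, Aldoa, was level at 1592 and 1613 against 1611 and 1611 CPM. Its minor relative Aldoc fell from 62.5 and 64.6 to 54.2 and 51.8 CPM (log2 fold change -0.26 ± 0.04, adjusted p = 0.000232 by edgeR), under all 14 alternatives. Aldoc made up 2.14 and 2.18% of the summed aldolase level per kilobase in empty vector and 1.84 and 1.75% in Dnm3os libraries.

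The chain from Gapdh to Ldha holds the most abundant members. Per kilobase Gapdh stood first at 2933 CPM per kb in empty vector libraries, followed by Pkm (pyruvate kinase, 2089), Eno1 (enolase, 1535), Ldha (lactate dehydrogenase, 1327) and Aldoa (1034). Gapdh, often used as a reference gene, was at 4122 and 4208 against 4206 and 4286 CPM (log2 fold change 0.03 ± 0.02). Pkm, at 4986 and 5174 against 4963 and 4880 CPM, and Ldha, at 2077 and 2136 against 2070 and 1979 CPM, were lower in both Dnm3os libraries and not called (-0.05 ± 0.02 and -0.06 ± 0.02). Both were called lower without empty vector library 1, at -0.08 each (adjusted p = 0.00356 and 0.0335 by edgeR). Gpi1, Tpi1, Pgk1, Pgam1 and Eno1 lay between -0.04 and 0.04 on the log2 scale and were not called. Genes of this chain have many processed pseudogenes, so shared reads make their counts uncertain.

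Slc16a3 (MCT4), which exports lactate, fell from 265.6 and 271.0 to 255.8 and 242.1 CPM (log2 fold change -0.11 ± 0.03, adjusted p = 0.0342 by edgeR). Leaving out either library numbered 2 ended the call (-0.09 without that of empty vector, -0.07 without that of Dnm3os). The other lactate carrier, Slc16a1 (MCT1), was not called (0.07 ± 0.03). Per kilobase, the share of Slc16a3 in the sum of both was 50.1 and 51.3% in empty vector and 48.02 and 47.13% in Dnm3os libraries.

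In the arm as a whole, 2 of 19 members rose, 2 fell and 15 were not called, with a median log2 fold change of -0.03. The share called was 21.1%, beside 12.3% of all genes tested and 16.9% of those at 50 CPM or more. The summed level was 21381 and 21890 CPM in empty vector and 21635 and 21220 CPM in Dnm3os libraries, which overlapped. Of the 25 further glycolysis, lactate and glycogen genes listed, 20 could be tested, of which 1 rose (Slc2a6), 1 fell (Pfkm) and 18 were not called (median 0.03). That is 10.0% called, below the 12.3% of all genes tested.

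At the pyruvate dehydrogenase step, the catalytic subunits rose and a kinase that inhibits them fell, each by 7 to 10%. The share called was 100.0% of 3 members, beside 12.3% of all genes tested and 16.9% of those at 50 CPM or more. Pdha1, the E1 alpha subunit, went from 65.7 and 67.1 to 74.3 and 71.6 CPM (log2 fold change 0.14 ± 0.04, adjusted p = 0.0316 by edgeR). Pdhb, the E1 beta subunit, went from 119.6 and 120.3 to 131.3 and 126.4 CPM (0.10 ± 0.03, adjusted p = 0.0484 by edgeR). Pdk1, the kinase, fell from 83.7 and 82.6 to 78.6 and 71.9 CPM (-0.15 ± 0.04, adjusted p = 0.0262 by edgeR). Per kilobase, Pdk1 was 41.7 and 42.0% of the sum of Pdk1 to Pdk4 in empty vector and 39.9 and 39.4% in Dnm3os libraries. Pdk3 held the larger share, at 57.0 and 56.9% against 58.5 and 59.4%. The summed kinase level overlapped between groups, at 38.75 and 37.96 against 37.99 and 35.17 CPM per kb.

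Pdhb was called under 2 of its 14 alternatives, with no filter on low counts or with total counts as library size, and in no fit that left out a library (0.07 to 0.13). Pdha1 lost its call without any library other than empty vector library 2 (0.11 to 0.16), and Pdk1 without Dnm3os library 2 (-0.08). DESeq2, or summing the counts of all transcripts, ended the calls of Pdha1, Pdhb and Pdk1 alike.

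Around the complex, 3 of 11 further genes of pyruvate entry rose, 0 fell and 8 were not called (median 0.08). Over all genes tested, 6.51% were called higher. DESeq2, or summing the counts of all transcripts, called 0 of the 11 higher, which ended all 3 calls. The count lower was 0 with DESeq2, with limma-voom and at an edgeR p under 0.05 before adjustment. The E2 subunit Dlat (0.12 ± 0.03), the E3 subunit Dld (0.10 ± 0.03) and the mitochondrial pyruvate carrier Mpc1 (0.22 ± 0.07) rose (adjusted p = 0.0209, 0.0327 and 0.0295 by edgeR). Mpc2, its partner, was not called (0.21 ± 0.07, adjusted p = 0.0569 by edgeR), nor were the E3-binding Pdhx (-0.07 ± 0.04) and the kinase Pdk3 (-0.02 ± 0.05). Dld and Mpc1 lost their calls whichever library was left out (0.09 to 0.11 and 0.18 to 0.26), and Dlat without any library other than empty vector library 2 (0.08 to 0.14).

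**Figure D4:**
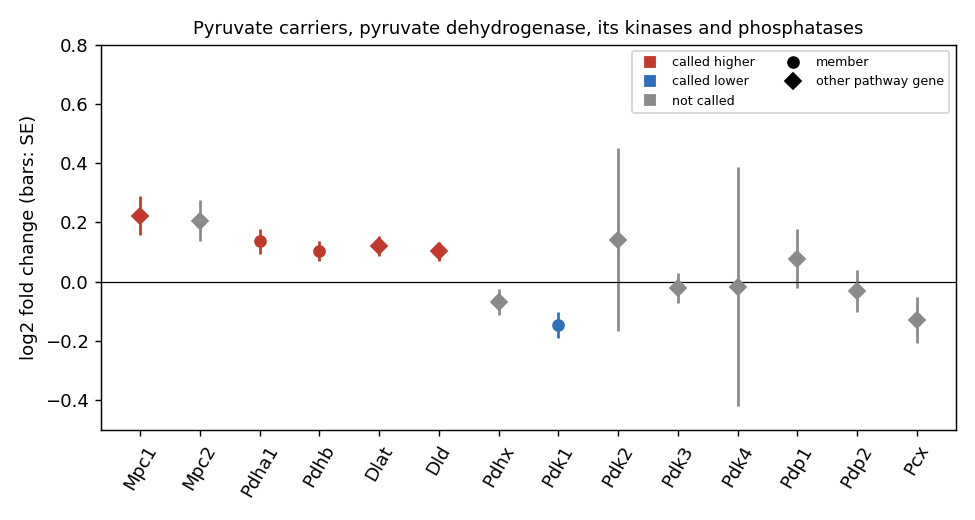
Log2 fold change (y axis, bars are the SE of the edgeR fit) of pyruvate carriers, pyruvate dehydrogenase subunits, kinases, phosphatases and pyruvate carboxylase (x axis); circles are members and diamonds other pathway genes. Mpc1, Pdha1, Pdhb, Dlat and Dld lie between 0.10 and 0.22, and Pdk1 is at -0.15.

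In the pentose phosphate pathway, the oxidative enzymes that make NADPH were not called. G6pdx, the entry dehydrogenase, was at 507 and 511 against 496 and 500 CPM (log2 fold change -0.03 ± 0.03), Pgd at 846 and 808 against 791 and 798 CPM (-0.06 ± 0.03), and the lactonase Pgls at 0.08 ± 0.04. In each of these 3 the groups did not overlap, as in 51.2% of all genes tested. H6pd, the related enzyme of the endoplasmic reticulum and no member, fell by 0.24 ± 0.06 on the log2 scale (adjusted p = 0.00664 by edgeR), a call lost without Dnm3os library 1 (-0.22).

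In the non-oxidative branch, transaldolase (Taldo1) fell from 332 and 335 to 278.5 and 278.9 CPM, with means of 333 ± 1.75 and 279 ± 0.296 CPM. Its log2 fold change was -0.26 ± 0.03 (adjusted p = 1.68e-06 by edgeR), called under all 14 alternatives with values of -0.27 to -0.25. Transketolase (Tkt), which works with it, was at 555 and 577 against 566 and 577 CPM (0.01 ± 0.03). Ribose 5-phosphate isomerase (Rpia) rose from 48.5 in both empty vector libraries to 53.5 and 53.7 CPM (0.14 ± 0.05, adjusted p = 0.0418 by edgeR). Rpia lost its call whichever library was left out, with a value of 0.14 in each of these fits.

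Of the 6 members, 1 rose, 1 fell and 4 were not called (median -0.01). The share called was 33.3%, beside 12.3% of all genes tested and 16.9% of those at 50 CPM or more. Their summed level was 2356 and 2346 CPM in empty vector and 2254 and 2280 CPM in Dnm3os libraries, a mean 3.58% lower. The mean sum went from 2351 to 2267 CPM, in which Taldo1 went from 333 to 279 CPM and Pgd from 827 to 795 CPM. The log2 fold change was above 0 in 3 members and below 0 in 3, so the sum does not describe the arm evenly. Of the 7 further pentose phosphate genes, 0 rose, 1 fell and 6 were not called, a share of 14.3% beside the 12.3% of all genes. DESeq2 called 0 of the 7 in either direction, which ended the call of H6pd. The count higher was also 0 with limma-voom and at an edgeR p under 0.05 before adjustment.

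The TCA cycle arm also lists the cytosolic enzymes Aco1, Idh1 and Mdh1. In this arm 4 of 19 members rose, 1 (Idh1) fell and 14 were not called, with a median log2 fold change of 0.06. The share called was 26.3%, beside 12.3% of all genes tested and 16.9% of those at 50 CPM or more. The groups did not overlap in 12 members that were higher and 1 that was lower in Dnm3os libraries, against 26.2% and 25.0% of all genes tested. The summed level was 3416 and 3430 CPM in empty vector and 3541 and 3551 CPM in Dnm3os libraries, a mean 3.60% higher with no overlap.

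The 4 members that rose encode enzymes acting between succinate and oxaloacetate. Of succinate dehydrogenase, which also serves as complex II of the respiratory chain, the membrane anchor Sdhd went from 145 and 144 to 168 and 158 CPM (log2 fold change 0.18 ± 0.03, adjusted p = 0.000727 by edgeR). The flavoprotein Sdha went from 246 and 243 to 265 and 258 CPM (0.10 ± 0.03, adjusted p = 0.0426 by edgeR). The iron-sulfur subunit Sdhb and the anchor Sdhc had 0.06 ± 0.04 and 0.07 ± 0.03 and were not called.

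Fumarase (Fh1) rose from 120 and 124 to 138 and 131 CPM (0.13 ± 0.03, adjusted p = 0.0112 by edgeR). The cytosolic malate dehydrogenase Mdh1, part of the malate-aspartate shuttle, rose from 234 and 241 to 258 and 255 CPM (0.11 ± 0.03, adjusted p = 0.0216 by edgeR), and the mitochondrial Mdh2 had 0.04 ± 0.03. Got1, the cytosolic transaminase of that shuttle, rose by 0.21 ± 0.04 (adjusted p = 0.000649 by edgeR) and its mitochondrial partner Got2 had 0.00 ± 0.03.

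Of these calls, Sdhd was lost without Dnm3os library 1 (0.13) and Sdha whichever library was left out (0.08 to 0.12). Fh1 was lost on leaving out empty vector library 1 (0.11) or Dnm3os library 1 (0.10). Mdh1 was lost without any library other than empty vector library 2 (0.08 to 0.12).

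Of the 5 isocitrate dehydrogenase genes, 1 was called. Idh1, the cytosolic enzyme that makes NADPH, fell from 131 and 138 to 123 and 122 CPM (log2 fold change -0.13 ± 0.03, adjusted p = 0.00963 by edgeR). Its call was lost without any library other than empty vector library 1 (-0.14 to -0.10). The mitochondrial NADPH-making Idh2 had -0.01 ± 0.03. The NAD-linked subunits Idh3a, Idh3b and Idh3g had 0.09, 0.07 and 0.05 and were not called. Citrate synthase (Cs) was level at 425 and 420 against 431 and 424 CPM.

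The cytosolic aconitase Aco1, also known as an iron regulatory protein, was not called (-0.02 ± 0.04). Ogdh and Dlst, subunits of the oxoglutarate dehydrogenase complex, had 0.06 ± 0.03 and 0.03 ± 0.03.

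Of the 24 further genes of anaplerosis, shuttles and assembly listed, 22 could be tested, of which 4 rose (Me2, Got1 and Clybl among them), 2 fell and 16 were not called (median 0.05). The share called was 27.3%, beside 12.3% of all genes tested. Glutamine synthetase (Glul) fell from 62.7 and 62.7 to 40.1 and 42.4 CPM (log2 fold change -0.60 ± 0.05, adjusted p = 2.64e-09 by edgeR). The cytosolic malic enzyme Me1, another source of NADPH, fell from 69.7 and 72.1 to 55.8 and 57.8 CPM (-0.32 ± 0.04, adjusted p = 1.06e-05 by edgeR). Glul, Me1, Got1 and Slc2a6 were called under all 14 alternatives.

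**Figure D5:**
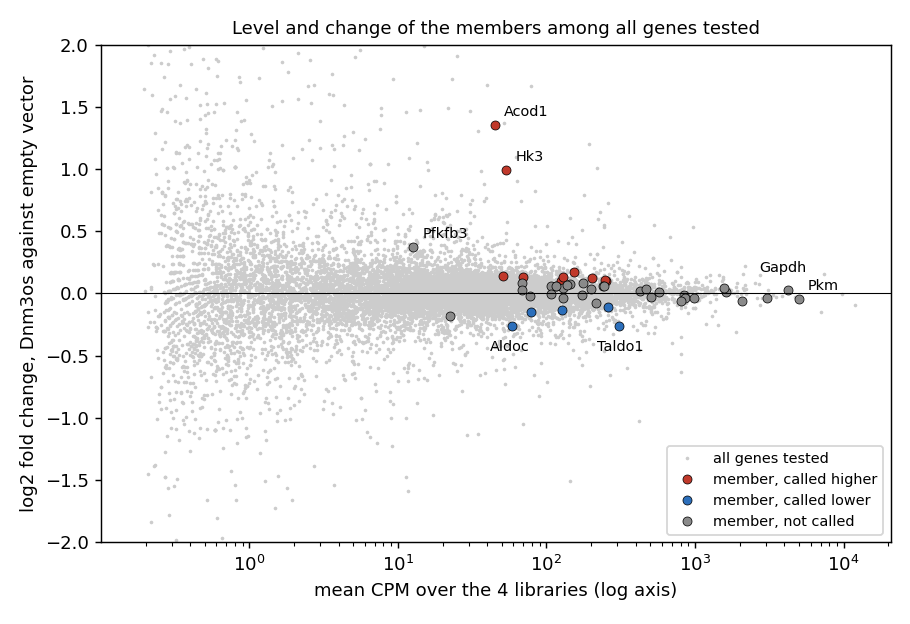
Log2 fold change (y axis, cut at -2 and 2, which leaves out 76 genes) against mean CPM over the 4 libraries (x axis, log scale) for all 13172 genes tested (grey) and the 48 members (coloured). The members lie at 12.7 CPM and above, and all but Acod1 and Hk3 lie between -0.26 and 0.37.

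Among the 15 members with several transcripts, the choice of transcript moved the difference by at most 0.03 on the log2 scale. DESeq2 called Acod1, Hk3 and Sdhd higher and Aldoc and Taldo1 lower, where it called 3.07% of all genes higher and 2.75% lower. With the counts of all transcripts summed, 4 members were higher and 3 lower, beside 5.25% and 4.72% of all genes.

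Without empty vector library 1, 3 members were called higher and 7 lower, against 5.03% and 5.88% of all genes. Without empty vector library 2 the counts were 8 and 3 (6.03% and 4.77% of all genes). Leaving out Dnm3os library 1 gave 2 higher and 4 lower (3.68% and 3.4%), and leaving out Dnm3os library 2 gave 6 and 2 (3.48% and 2.96%). With the replicate numbers as a block, 7 members were higher and 5 lower, beside 6.59% and 5.94% of all genes.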

How the data were processed

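Per the labels, RNA was isolated as total RNA, poly(A)-selected, made into TruSeq libraries and read on an Illumina HiSeq 2500. TopHat, Bowtie2, DESeq2 and build mm9 appear in the submitters' processing notes, without versions or roles, and how reads were counted, or with which strand setting, is not given in the sources used here. The authors deposited whole-number read counts of 35786 RefSeq transcripts and, per the file headers, a normalized signal, which is those counts times 1 constant per library (checked on every transcript).

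Symbols came from RefSeq's gene table for 35499 transcripts and from GENCODE M21 for 178; 109 without a symbol were kept under their IDs, and 45S ribosomal RNA was dropped. Each gene was represented by its transcript of highest mean count. Genes were filtered with filterByExpr, scaled by TMM (0.997 to 1.003) and tested with edgeR 4.0.16 (glmQLFit, robust, and glmQLFTest) in R 4.3.3, on all genes. SE was derived from the fit as |log2 fold change| divided by √F. Levels per kilobase used GENCODE M21 transcript lengths and promoters were RefSeq's (GRCm38.p6, another build than the authors'). The T cell, B cell, neutrophil, fibroblast, endothelial and epithelial lists, the members and the pathway lists were chosen with earlier results of these data known. All members were to be named, with up to 4 called genes of each further list by adjusted p; other genes of these lists, Me2 among them, and the isozyme families were chosen after their values were seen. The 14 alternatives were 4 other scalings, DESeq2 1.42.0, limma-voom (limma 3.58.1), 2 filters, summed isoforms, a replicate block and each library left out; a lone library was assumed to vary like the others.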

Additional observations from a re-analysis of the deposited data

How the results depend on the processing

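Of 672 values of single members under the 14 alternatives, 612 kept their side of the threshold, 56 lost a call, 4 gained one and 0 changed the direction of a call. The calls of Acod1, Hk3, Aldoc and Taldo1 held under all 14. The other 11 calls were of differences of 7 to 13%, and each was lost under at least 1 alternative.

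DESeq2 called 404 genes higher and 362 lower in all, and 3 members higher and 2 lower. By arm, DESeq2 called 1 higher and 1 lower in glycolysis, 0 and 0 at the pyruvate dehydrogenase step, 0 higher in the pentose phosphate pathway, and 1 higher and 0 lower in the TCA cycle. In the further lists DESeq2 called 0 lower in glycolysis, 0 higher in pyruvate entry, 0 lower in the pentose phosphate pathway and 1 higher in anaplerosis. With isoforms summed, 4 members were higher and 3 lower: 1 and 1 in glycolysis, 0 and 0 at the pyruvate dehydrogenase step, 0 higher in the pentose phosphate pathway and 2 higher in the TCA cycle. The further lists then had 0 lower in glycolysis, 0 higher in pyruvate entry and 2 higher in anaplerosis. With DESeq2 size factors, upper-quartile factors, the authors' constants, limma-voom or a filter at 1 CPM, 1 gene was higher at the pyruvate dehydrogenase step, since Pdhb was lost. Without a filter on low counts, 2 further glycolysis genes were higher. The causes were not tested.

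Leaving out each library in turn gave 465 to 808 genes higher and 396 to 786 lower, and 2 to 8 members higher and 2 to 7 lower. By arm the counts higher and lower were 1 to 3 and 1 to 4 in glycolysis, 0 to 1 and 0 to 1 at the pyruvate dehydrogenase step, 0 higher in the pentose phosphate pathway, and 0 to 3 and 0 to 1 in the TCA cycle. In the further lists they were 1 to 3 and 0 to 2 in glycolysis, 0 to 1 higher in pyruvate entry, 0 to 1 lower in the pentose phosphate pathway and 1 to 5 higher in anaplerosis.

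Deviations of same-numbered libraries from their group means correlated at -0.078 over genes. With 2 libraries per group the other pairing gives 0.078 by construction, so this single contrast cannot show whether the replicate numbers pair the libraries. With a replicate block, 7 members were higher and 5 lower, with 1 higher at the pyruvate dehydrogenase step and 0 higher in the pentose phosphate pathway, since Pdhb, Rpia and Sdha were lost. Dld lost its call under the block as well.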

Other observations

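Genes whose products make NADPH outside mitochondria were set side by side after their values were seen, so the grouping is a description. Me1 fell by 0.32, H6pd by 0.24 and Idh1 by 0.13 on the log2 scale, while G6pdx and Pgd had -0.03 and -0.06 and were not called. The call of Me1 held under all 14 alternatives, but DESeq2 ended those of H6pd and Idh1. H6pd also lost its call without Dnm3os library 1 (-0.22), and Idh1 without any library other than empty vector library 1 (-0.14 to -0.10). The mitochondrial Idh2 had -0.01 and the mitochondrial malic enzyme Me2 rose by 0.11. This call of Me2 was lost on leaving out empty vector library 1 (0.11) or Dnm3os library 1 (0.06), and with DESeq2, limma-voom or summed isoforms.

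Lactate dehydrogenase B (Ldhb) and the liver pyruvate kinase Pklr had 0 counts in all 4 libraries.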
